A study of Mus musculus with 8 samples.

Results

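Peaks centred on coding exons were described in RNA that had been co-precipitated with NONO from mouse liver nuclei. A peak was a member when its midpoint lay in a coding segment, the translated part of 1 exon, of a protein-coding transcript in the basic set of GENCODE M21 (genome build mm10). Of 206501 peaks in 4 lists, 985 were members. They were 167 of 38209 peaks in fasted liver, 271 of 61737 at 2 h of re-feeding, 124 of 50609 at 10 h and 423 of 55946 in the IgG control. Choosing members by position used no tag value, fold or width.

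All mice were wild-type C57BL/6 aged 14 weeks. The light cycle was 12 h on and 12 h off, and for a week beforehand food was offered in the dark phase alone. Livers were taken fasted at zeitgeber time 10, after 2 h of re-feeding at zeitgeber time 14, and after 10 h of re-feeding at zeitgeber time 22, so meal and clock time changed together and cannot be told apart. Nuclei were spun out on a sucrose cushion, lysed, and incubated with beads carrying anti-NONO antibody. A precipitation with IgG served as the background, with no feeding state or time in its labels, and each of the 4 precipitates had its own input library. Each of the 8 libraries pooled 2 experiments, so every group was 1 library and no difference between times had a replicate error. No test between groups was therefore possible, and intervals below are exact 95% Clopper-Pearson intervals that cover counting error only.

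NONO is an RNA-binding protein of the nucleus that works with SFPQ and PSPC1 in transcription, splicing and nuclear retention of RNA, and it is a building block of paraspeckles. Coding exons are short islands between long introns in a pre-mRNA, and splicing joins them. A nuclear RNA peak over an exon can come from pre-mRNA still holding its introns or from spliced mRNA. Cassette exons are exons that some transcripts of a gene include and others skip.

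The segments below carry the main observations. Each is given in the direction of its transcript, from the GENCODE M21 transcripts of GRCm38 (mm10), in lower case, with the base at the peak midpoint and up to 10 bases on either side in capitals. The first 5 are cassette exons under NONO peaks. Slk encodes a STE20-like kinase, Fn1 fibronectin, Nf1 the RAS inhibitor neurofibromin, Numb a Notch antagonist and Dst the cytoskeletal linker dystonin.
Slk exon 13 (chr19:47627648-47627740, plus strand): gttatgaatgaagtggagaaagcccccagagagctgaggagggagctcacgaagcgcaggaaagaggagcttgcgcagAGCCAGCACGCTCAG
Fn1 exon 25 (chr1:71613763-71614035, minus strand): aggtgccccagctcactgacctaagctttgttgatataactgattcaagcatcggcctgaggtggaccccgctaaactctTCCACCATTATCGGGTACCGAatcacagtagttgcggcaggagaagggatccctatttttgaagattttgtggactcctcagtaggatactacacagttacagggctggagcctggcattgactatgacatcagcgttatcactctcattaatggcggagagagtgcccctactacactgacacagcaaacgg
Nf1 exon 31 (chr11:79463233-79463295, plus strand): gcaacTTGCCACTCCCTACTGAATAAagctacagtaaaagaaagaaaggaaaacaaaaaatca
Numb exon 9 (chr12:83797197-83797343, minus strand): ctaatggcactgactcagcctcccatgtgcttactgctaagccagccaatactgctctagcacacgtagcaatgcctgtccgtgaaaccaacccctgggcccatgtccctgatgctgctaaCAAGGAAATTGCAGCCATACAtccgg
Dst exon 99 (chr1:34301861-34301932, plus strand): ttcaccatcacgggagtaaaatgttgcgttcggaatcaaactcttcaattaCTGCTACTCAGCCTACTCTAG

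The next 4 are ordinary exons under strong or recurring NONO peaks. Nono is the gene of the precipitated protein, Vps13a encodes a lipid transfer protein, Enpp3 an ectonucleotidase and Med13 a Mediator subunit.
Nono exon 12 (chrX:101447594-101447725, plus strand): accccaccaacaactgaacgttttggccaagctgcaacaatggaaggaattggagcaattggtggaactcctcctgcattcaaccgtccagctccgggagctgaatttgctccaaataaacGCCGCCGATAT
Vps13a exon 23 (chr19:16720329-16720467, minus strand): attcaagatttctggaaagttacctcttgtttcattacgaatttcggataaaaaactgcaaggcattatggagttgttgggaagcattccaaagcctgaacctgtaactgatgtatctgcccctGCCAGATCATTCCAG
Enpp3 exon 15 (chr10:24795686-24795813, minus strand): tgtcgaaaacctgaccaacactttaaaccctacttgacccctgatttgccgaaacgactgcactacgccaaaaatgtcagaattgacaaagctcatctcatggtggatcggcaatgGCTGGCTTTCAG
Med13 exon 27 (chr11:86276820-86276968, minus strand): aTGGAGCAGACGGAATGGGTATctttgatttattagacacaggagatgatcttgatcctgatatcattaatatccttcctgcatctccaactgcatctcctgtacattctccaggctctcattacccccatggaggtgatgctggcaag

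Exons that held most or all of a NONO peak are shown by a window of up to 150 bases. The Hist2h2ab segment is 390 bp long, and its 10 h peak of 633 bp ran past it. Tro encodes the adhesion protein trophinin, Srrm2 a scaffold of nuclear speckles and Hist2h2ab a histone H2A.
Tro exon 12 (chrX:150648426-150648575, minus strand): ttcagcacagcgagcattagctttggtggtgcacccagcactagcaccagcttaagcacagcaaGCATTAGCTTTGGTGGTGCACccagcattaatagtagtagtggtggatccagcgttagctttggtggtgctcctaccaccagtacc
Srrm2 exon 11 (chr17:23817377-23817526, plus strand): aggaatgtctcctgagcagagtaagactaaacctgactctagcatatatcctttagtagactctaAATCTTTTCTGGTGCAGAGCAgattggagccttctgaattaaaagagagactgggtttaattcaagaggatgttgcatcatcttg
Hist2h2ab exon 1 (chr3:96220181-96220305, plus strand): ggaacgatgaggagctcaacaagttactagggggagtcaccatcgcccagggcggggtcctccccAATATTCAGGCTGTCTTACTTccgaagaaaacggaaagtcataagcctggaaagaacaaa

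A pair of exons led the IgG list, Fasn by tags and Pcsk4 by fold among peaks with at least the median tags, and are given for contrast. Fasn encodes fatty acid synthase and Pcsk4 a proprotein convertase.
Fasn exon 10 (chr11:120818433-120818620, minus strand): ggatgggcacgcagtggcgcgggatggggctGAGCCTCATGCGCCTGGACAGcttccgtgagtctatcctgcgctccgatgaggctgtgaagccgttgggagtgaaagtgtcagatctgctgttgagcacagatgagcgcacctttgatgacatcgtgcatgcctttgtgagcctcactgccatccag
Pcsk4 exon 8 (chr10:80324932-80325144, minus strand): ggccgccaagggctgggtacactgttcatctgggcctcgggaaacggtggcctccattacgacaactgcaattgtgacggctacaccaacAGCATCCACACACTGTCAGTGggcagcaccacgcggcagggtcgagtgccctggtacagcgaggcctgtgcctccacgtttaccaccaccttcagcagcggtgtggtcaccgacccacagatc

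The GC content of the NONO stretches ran from 34.9% in Nf1 to 58.1% in Slk, and that of the IgG pair was 59.0% in Fasn and 61.5% in Pcsk4. Of the 50-base words of the Nono segment, 76.5% also occurred in transcripts of Gm5171 or Gm8806, and 59.4% of those of Hist2h2ab occurred in other genes, histone genes among them. Reads on these 2 segments could therefore stem from a copy. Words of Slk, Fn1, Nf1, Numb, Dst, Vps13a, Enpp3, Med13 and Tro occurred in no transcript of another gene.

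The precipitates held between 18275033 and 21091048 tags (mapped reads), so 1 read was worth 0.474 to 0.547 normalised tags, a unit scaled to 10000000 tags per library. A peak over Rn7sk took 37.5% of the IgG library, which lowers the normalised tags of all other IgG peaks. Every peak was listed on the plus strand, so strand could not place a peak on 1 of 2 overlapping genes. Of 9 hepatocyte marker genes matched in the annotation, 6 carried a NONO peak of some kind, against 5 of 7 for Kupffer cells, 4 of 7 for endothelium, 2 of 7 for stellate cells, 1 of 7 for lymphocytes and erythroid cells and 0 of 6 for cholangiocytes. Over all coding genes it was 8764 of 21924. None of these markers carried a coding-exon peak in any of the 4 lists, but only 457 of the 21924 genes carried a NONO one, so a count of 0 in lists this short says little. In whole liver, fewer cells of a type and less RNA per cell cannot be told apart.

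Few peaks were centred on coding exons. The share was 0.437% of the fasted list (interval 0.373 to 0.508), 0.439% of the 2 h list (0.388 to 0.494) and 0.245% of the 10 h list (0.204 to 0.292). In the IgG list it was 0.756% (0.686 to 0.831). The 10 h interval lay below the other NONO intervals, and the IgG interval lay above all 3. Coding bases made up 3.44% of all protein-coding gene bodies. For each peak with a midpoint in a coding gene, the coding share of that gene's body was taken. Its mean over peaks was 3.33% (fasted), 3.40% (2 h), 3.44% (10 h) and 3.54% (IgG), and its median 2.31%, 2.41%, 2.44% and 2.43%. Of the peaks with a midpoint in such a gene, 0.476%, 0.481%, 0.269% and 0.824% in the same order were centred on a coding exon. In each of the 4 lists the coding-exon share was thus below both the mean and the median coding share of the genes under the peaks. The 3' untranslated regions held more NONO midpoints, with 727 fasted, 979 2 h and 1080 10 h peaks, while the IgG list had 523.

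**Figure D1:**
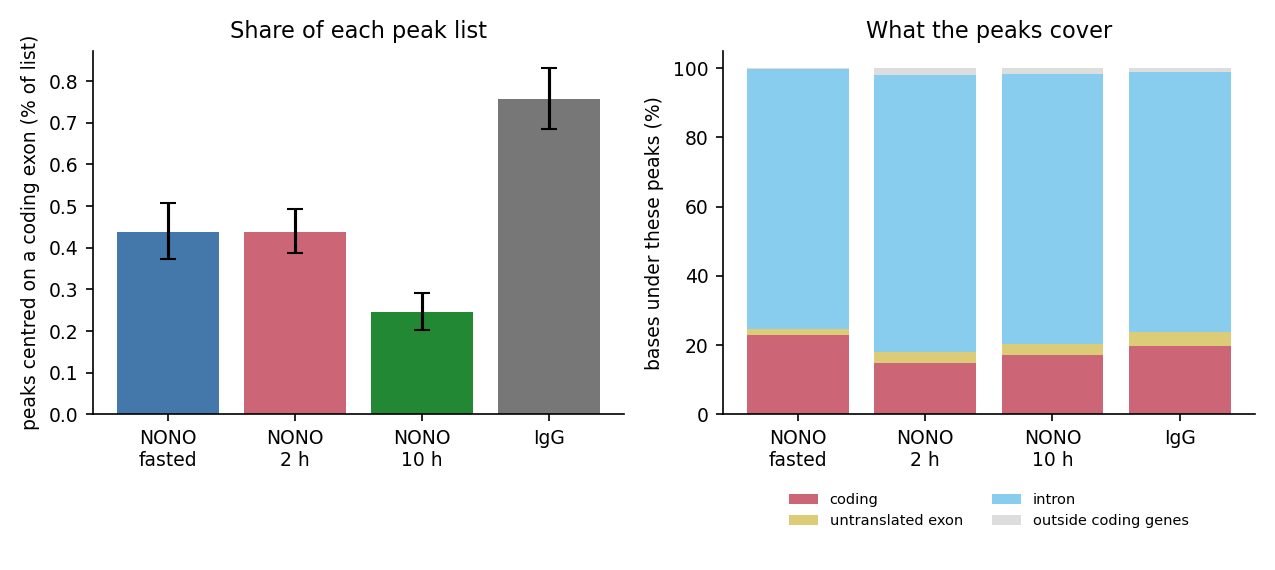
The left panel gives the percentage of each peak list that was centred on a coding exon, with exact 95% intervals for counting error, and the right panel the percentage of bases under those peaks by annotation. The IgG bar is highest at 0.756% and the 10 h bar lowest at 0.245%, and intron makes up about 75% to 80% of the bases in all 4 lists.

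These peaks covered mostly intron. Coding bases were 23.1% of all bases under the fasted members, 14.9% at 2 h, 17.3% at 10 h and 19.8% in IgG, and intron bases 75%, 80%, 78.1% and 75.3%. The peak spanned its whole coding segment and ran into the flanking sequence in 145 of 167 fasted, 245 of 271 2 h, 105 of 124 10 h and 370 of 423 IgG cases. Peaks that lay wholly inside 1 coding segment numbered 15, 13, 10 and 18. In the 3 NONO lists these included Srrm2, Tro, Pkdrej, Macf1, Tcf20, Naca and several zinc finger genes. At least 50% of the bases were coding in 29 fasted, 31 2 h, 25 10 h and 73 IgG peaks. Most members had 1 coding segment under them (80.8%, 80.4%, 83.9% and 70.2%), and the most crowded NONO peak covered 12.

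Midpoints lay within 10 bp inside a segment border in 32 fasted, 70 2 h, 24 10 h and 78 IgG peaks, with median widths of 878 bp, 1398 bp, 1154 bp and 912 bp and medians of 27.3, 29.4, 28.2 and 24.5 normalised tags. Just outside, also within 10 bp, lay 37, 44, 22 and 66 peaks, with median widths of 500 bp, 1400 bp, 1453 bp and 1278 bp and medians of 14.7, 24.9, 42.7 and 21.4 normalised tags.

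The coding segments were near the usual length. Their median was 139 bp in the fasted list, 131 bp at 2 h, 142 bp at 10 h and 144 bp in IgG, against 124 bp over 212427 annotated coding segments. Segments of at least 500 bp held 23 fasted (13.8%, interval 8.94 to 19.9), 27 2 h (9.96%, 6.67 to 14.2), 16 10 h (12.9%, 7.56 to 20.1) and 41 IgG peaks (9.69%, 7.05 to 12.9). They were 4.86% of annotated segments but 29.7% of coding bases, so the share under midpoints lay between these values in each of the 4 lists. Internal segments made up 86.8%, 80.4%, 75.8% and 74.7%. First coding segments were 5.39%, 6.27% and 3.23% in the NONO lists and numbered 55 of 423 in IgG, and last coding segments 4.79%, 9.59%, 16.9% and 8.75%.

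**Figure D2:**
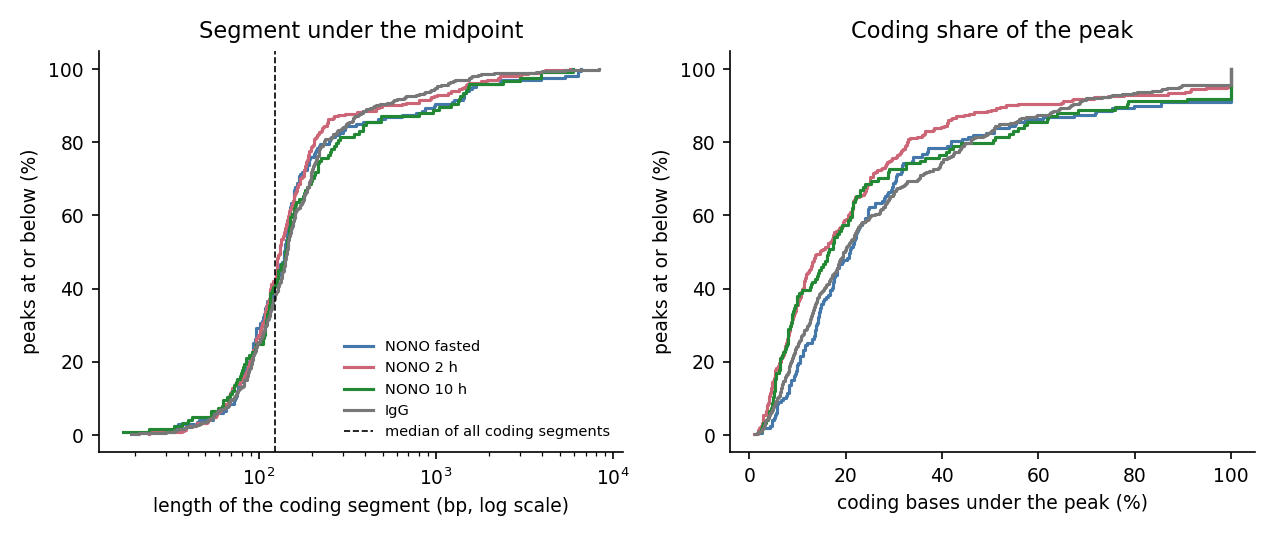
Cumulative percentage of coding-exon peaks by length of the coding segment under the midpoint (left, log scale) and by the percentage of the peak that is coding (right), for the 4 lists. The curves of length lie close together, beside a dashed line at 124 bp for the median of all coding segments, and few peaks pass 50% coding.

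In fold, the members were at or below other peaks. Their median fold over input, the authors' value, was 2.71 (fasted), 2.72 (2 h), 2.60 (10 h) and 3.25 (IgG), against 2.82, 3.13, 2.84 and 4.16 over all peaks. At least 4-fold over input were 37 fasted members (22.2%, against 21.0% of all fasted peaks), 56 at 2 h (20.7%, against 29.4%), 15 at 10 h (12.1%, against 18.6%) and 160 in IgG (37.8%, against 51.2%). The fasted share was near its background, and the other 3 were below it. Median normalised tags were 16.2, 23.7, 23.2 and 18.4, against 17.1, 17.1, 18.1 and 11.1 over all peaks. Per 10000000 tags outside the Rn7sk peak, the IgG median would be 29.4. Median widths were 630 bp, 896 bp, 778 bp and 751 bp, against 625 bp, 720 bp, 643 bp and 646 bp over all peaks. In tags per kb the members had medians of 24.4, 21.8, 25.7 and 17.9, against 25.6, 20.8, 25.2 and 15.4 over all peaks.

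**Figure D3:**
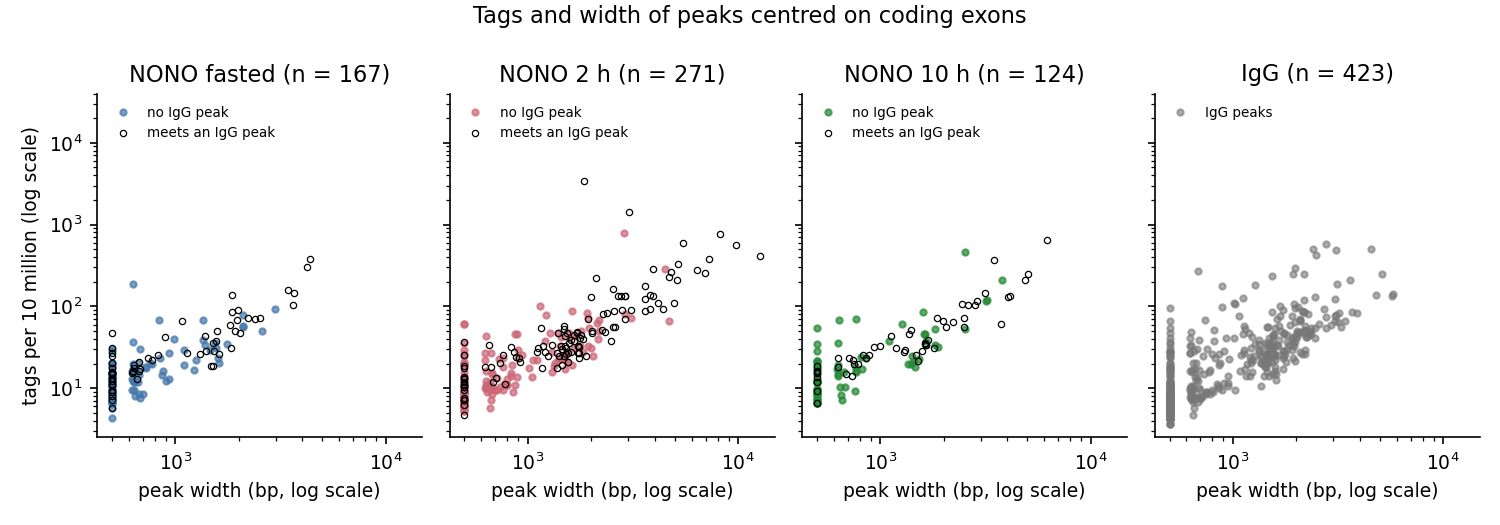
Normalised tags against peak width, both on log scales, for each coding-exon peak of the 4 lists, with open circles for NONO peaks that an IgG peak overlaps. Wide peaks hold more tags, and a column of peaks at the smallest width of 500 bp appears in each panel.

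The strongest fasted member lay on Vps13a, the exon 23 shown above, with 378.5 normalised tags at 2.79-fold (chromosome 19, 16718160 to 16722507). An intron-centred peak met it at 2 h with 422.0 and at 10 h with 169.6 normalised tags, and an IgG peak there had 13.2. In tags per kb, the fasted peak had 87.1 and its 10 h match 34.7, the one fasted member at least 2 times denser than at 10 h. Hnrnpm, a splicing repressor, followed with 305.7 fasted normalised tags over exon 6 (chromosome 17, 33664437 to 33668679, 2.02-fold), 183.5 at 2 h, 153.8 at 10 h and 30.5 in IgG. Both genes were thus met by peaks at all 3 times and by an IgG peak with fewer normalised tags. Orc4 (origin recognition) had 156.9, Ubp1 (a transcription factor) 146.4 and Adgrl2 (the receptor latrophilin 2) 137.4 normalised tags in the fasted list.

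Srrm2 was the strongest fasted member that no IgG peak overlapped. Its peak of 628 bp lay wholly in exon 11, a segment of 6569 bp (chromosome 17, 23817138 to 23817766), with 189.7 normalised tags at 2.16-fold, and no peak met it at 2 h or 10 h. Next among the IgG-free fasted members were Mapk8, the stress kinase JNK1, with 94.1 normalised tags, Dennd4c with 78.4, Pabpc1 (the poly(A)-binding protein) and Tro with 68.0 each, and Rbbp6 with 57.1. Mapk8 was met at both other times, with 99.1 and 47.6 normalised tags. Pabpc1 was met at 2 h alone, where its density was 22.4 against 81.1 tags per kb fasted. Of the words of the Pabpc1 segment 35.3% also occurred in Gm16580.

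At 2 h the list of strongest members was led by peaks with more than 1 possible source. Fth1, the ferritin heavy chain, had 3402.4 normalised tags at 2.18-fold (chromosome 19, 9983781 to 9985622) across 2 coding segments, with 13.7 in the IgG peak and no peak at the other times. Its peak also overlapped Best1, and 50% of the words of its segment occurred in Gm6977. The peak on Dnase2b, with 1429.0 normalised tags over exon 1 (chromosome 3, 146594884 to 146597912), also overlapped Uox, the urate oxidase gene. Gm37419, a gene model with a coding segment of 111 bp whose peak also overlapped Bcl6, a transcriptional repressor, had 787.5 normalised tags (chromosome 16, 23987107 to 23989977) and no IgG peak. The 10 h peak there had 37.8 normalised tags, with 75.6 against 274 tags per kb at 2 h. Nfe2l3 with 591.7 lay beside Hnrnpa2b1, which the same peak overlapped. For these 4 genes the tags could not be given to 1 gene.

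Huwe1 and Lyst were free of such neighbours. Huwe1, a ubiquitin ligase, had 757.2 normalised tags at 2 h over a peak of 8200 bp centred on exon 25 (chromosome X, 151870476 to 151878676), and the strongest peaks that overlapped it had 380.8 fasted, 692.2 at 10 h and 263.7 in IgG. The fasted peak over the exon itself had 91.3. Lyst, a lysosome trafficking regulator, had 568.5 at 2 h, 65.1 fasted, 148.3 at 10 h and 77.4 in IgG. The fasted values were the lowest of the NONO times in both genes.

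Among IgG-free members at 2 h, Slk stood next to Gm37419. Its peak of 4492 bp (chromosome 19, 47625490 to 47629982) was centred on cassette exon 13 with 283.1 normalised tags at 2.86-fold. Intron-centred peaks met it with 147.4 normalised tags fasted and 266.5 at 10 h. The Nono peak followed with 101.5 (chromosome X, 101447157 to 101448294, 2.55-fold), centred on the last coding base, and the peaks that met it, 86.5 fasted and 114.9 at 10 h, were centred in the 3' untranslated region. The Nono values at the 3 times thus lay within 1.5-fold of each other. Kmt2e and Crebbp, chromatin regulators, had 87.7 and 81.6, and Ndufb4, a subunit of respiratory complex I, had 83.9.

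At 10 h the strongest member was again Nfe2l3 beside Hnrnpa2b1, with 652.8 normalised tags and 261.6 in IgG. Fn1 followed with 462.9 at 2.25-fold (chromosome 1, 71612689 to 71615201), IgG-free and met by no peak at the other times. Its midpoint lay in exon 25, which encodes the extra domain B of fibronectin, a cassette that adult hepatocytes mostly skip. Elsewhere in Fn1 the IgG list had a coding-exon peak with 246.9 normalised tags. Enpp3 had 210.7 at 3.02-fold over exon 15, against 101.7 fasted and 76.3 at 2 h, all IgG-free. Tor1aip1 (a nuclear envelope protein) had 119.8, Ern1 (the endoplasmic reticulum stress sensor IRE1) 115.5, Abca1 (a cholesterol exporter) 85.9 and Son (a nuclear speckle scaffold) 70.0, also IgG-free. Cep85l with 366.6, Mllt10 with 251.7 and Senp6 with 207.9 each met an IgG peak, with 170, 100 and 30 normalised tags. The small RNA gene Gm25147 lay under the Mllt10 peak.

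Among members with at least the median tags, Hist2h2ab reached 7.74-fold at 10 h, with 2.41-fold fasted and 3.19-fold at 2 h. Patj, a polarity scaffold, had 5.90-fold at 10 h, Adgrl2 4.84-fold fasted, and Xrn1, an RNA exonuclease, 4.32-fold fasted. At 2 h Eml5 and Fam196a led with 4.13-fold each, followed by Adgrl2 with 3.92-fold. In IgG, Pcsk4 had 10.1-fold, Mtmr4 5.79-fold, Ythdc2 5.78-fold and Ugt1a8 5.61-fold. Below the median in tags, Pkdrej reached 12.2-fold fasted with 12.8 normalised tags over 2 input tags.

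An overlap of 1 bp or more with an IgG peak was found for 64 fasted members (38.3%, interval 30.9 to 46.2, against 33.7% of all fasted peaks), 120 at 2 h (44.3%, 38.3 to 50.4, against 39.3%) and 54 at 10 h (43.5%, 34.7 to 52.7, against 39.5%). Each interval included the share over all peaks. The IgG peak was itself centred on a coding exon in 3, 11 and 5 of these cases. When at least 50% of the NONO peak was coding, 20.7%, 19.4% and 16.0% met an IgG peak, against 42.0%, 47.5% and 50.5% of the rest. The IgG-free members had fewer tags, with medians of 14.3, 13.7 and 17.0 normalised tags against 24.0, 35.0 and 32.5 for those that met IgG, and were narrower (625 bp, 663 bp and 631 bp against 710 bp, 1580 bp and 1436 bp). The part of width in the overlap was not tested.

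Fewer than 50% of the members were met by a peak at the later times. Any 2 h peak met 72 of 167 fasted members (43.1%, interval 35.5 to 51.0, against 51.2% of all fasted peaks), and any 10 h peak met 54 (32.3%, 25.3 to 40.0, against 39.6%). A 10 h peak met 105 of 271 members of the 2 h list (38.7%, 32.9 to 44.8, against 40.1%). The first interval lay just below its background and the other 2 included theirs. The partner was mostly centred in an intron, in 62 of 72, 50 of 54 and 95 of 105 cases, and on a coding exon in 9, 3 and 6. Met at neither other time were 83 fasted (49.7%), 132 2 h (48.7%) and 51 10 h members (41.1%), against 36.5%, 48.3% and 38.5% of all peaks in those lists. The 2 h and 10 h shares were near this background.

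Where peaks met, most densities were within 2-fold. From fasted to 2 h, 6 of 72 were at least 2 times denser at 2 h (8.33%, against 2.36% of all matched fasted peaks) and 3 at least 2 times denser fasted (4.17%, against 7.90%). Among the 6 were Herc1, Bag1, Xpo4, Zfr and Hspa8, and the 3 were Pabpc1, Alg6 and Gcnt7. From fasted to 10 h, 4 of 54 were denser at 10 h (7.41%, against 3.44%) and 1, Vps13a, denser fasted (1.85%, against 5.10%). The 4 were Zfr, Ppp1r12a, Herc1 and Hist2h2ab. From 2 h to 10 h, 8 of 105 were denser at 10 h (7.62%, against 5.01%) and 1, Gm37419, denser at 2 h (0.952%, against 1.49%). Fasted values enter the first 2 of these comparisons, so they share that library, and the genes outside the naming rule were named after their values were seen. The counts depended on the list from which the match started. Of 87 2 h members matched fasted, 5 were denser fasted (5.75%, against 8.56% of all such peaks). At 2 h 4 were denser (4.60%, against 1.80%). Of 44 10 h members matched fasted, 4 were denser fasted (9.09%, against 5.41%) and 2 at 10 h (4.55%, against 3.29%). Of 62 10 h members matched at 2 h, 1 was denser at 2 h (against 2.09%) and 1 at 10 h (against 4.46%).

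Hspa8, the constitutive heat shock chaperone, had the largest such ratio among pairs of coding-exon peaks. Its exon 3 carried 18.1 normalised tags fasted and 61.6 at 2 h, both at a width of 500 bp and IgG-free, a density ratio of 3.40. All words of that segment also occurred in transcripts of other genes, so the source of the reads is uncertain. Hist2h2ab had 30.4 normalised tags fasted, 77.8 at 2 h and 68.4 at 10 h, and 44.9, 63.5 and 108 tags per kb. The small RNA gene Gm44492 and the histone gene Hist2h2ac lay under the same peaks. Zfr, a double-stranded RNA-binding zinc finger protein, had 59.0 fasted, 147.9 at 2 h and 202.5 at 10 h.

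Seen by segment, 543 coding segments of 457 genes lay under the midpoint of a NONO peak. Any NONO peak covered 380 of them at 1 time, 132 at 2 and 31 at all 3. No IgG peak lay over 21 of these 31 segments themselves. Besides Slk, Nono, Enpp3 and Hist2h2ab they included segments of Abca1, Tcf12 and Usp53, whose coding-exon peaks met no IgG peak either. They also included segments of Ccser2, Ints6, Kmt2c, Lrch3 and Chd7, whose 10 h peaks met an IgG peak beside the segment, with 32.1, 66.3, 9.48, 14.2 and 51.6 normalised tags. For Chd7 the IgG value was above its NONO values of 14.3 fasted, 33.7 at 2 h and 21.3 at 10 h. Smarca5, a chromatin remodeller, had 69.9 normalised tags fasted, 32.7 at 2 h and 17.0 at 10 h over exon 8, all words of which also occurred in other genes. With an IgG peak over the segment, Med13 had 90.8, 185.9 and 114.9 against 32.6 in IgG, Dst 44.7, 63.5 and 72.8 against 14.2, and Tro 68.0, 109.5 and 60.2 against 11.6. For Hnrnpk, an RNA-binding protein, the order was opposite, with 14.7, 15.6 and 14.2 in the NONO lists and 509.1 in IgG.

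**Figure D4:**
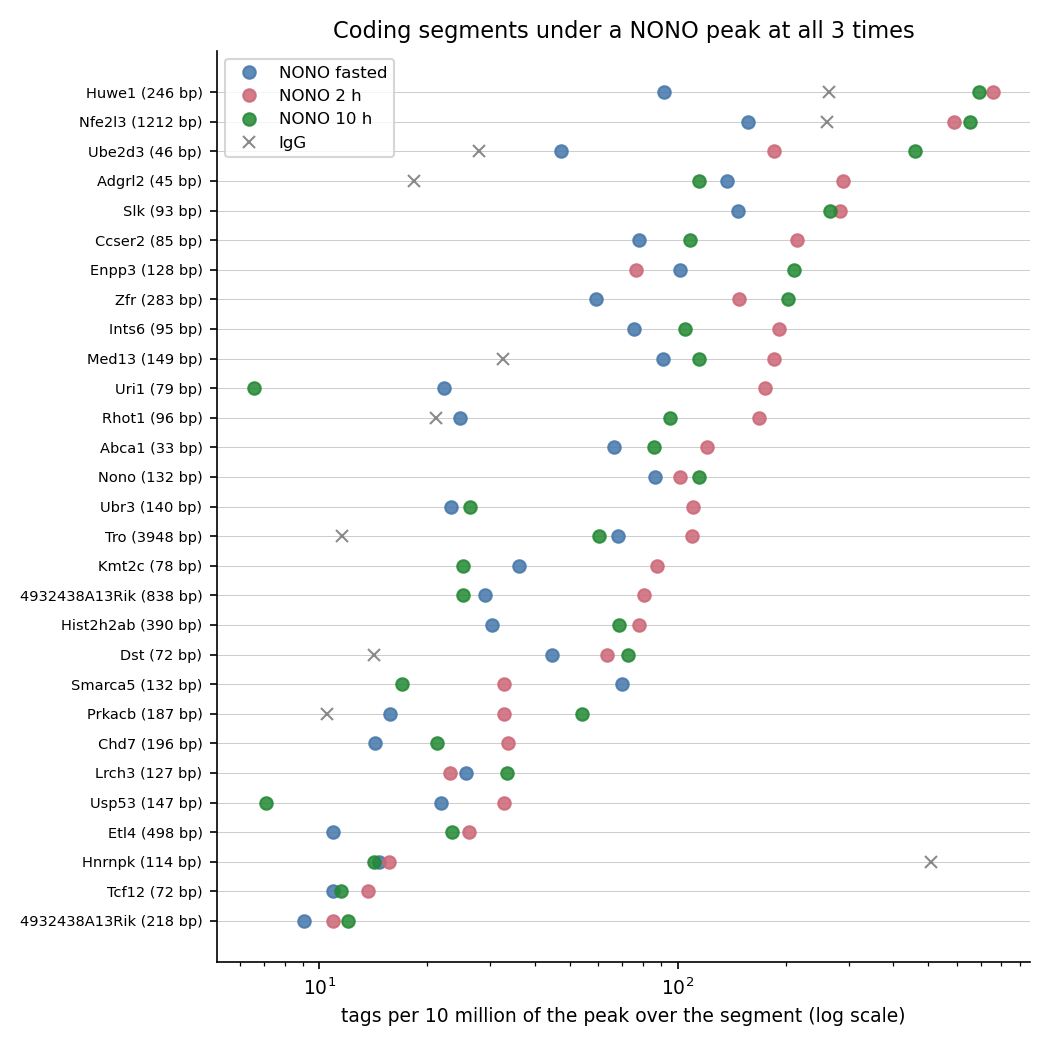
Normalised tags (log scale) of the strongest peak over 29 of the 31 coding segments with a NONO peak at all 3 times, 1 row per segment with its length, with crosses for IgG. Fasted values are mostly left of the 2 h values, and only Hnrnpk has its IgG cross to the right of all its NONO points.

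Cassette exons recurred among the members. Of 451 distinct internal segments under a NONO midpoint, 48 (10.6%, interval 7.95 to 13.9) lay wholly within an intron of another annotated protein-coding transcript of the gene, against 4.71% of all 163456 internal coding segments. Among the other internal segments of the same host genes the share was 6.15%, and 4.44% without Ttn, the titin gene, which alone had 161 such segments. By list the shares were 8.97% (13 of 145) fasted, 8.26% (18 of 218) at 2 h and 18.1% (17 of 94) at 10 h. For the other segments of the hosts they were 2.77%, 4.72% and 11.2%, with 5.64% over all segments of the 10 h hosts without Ttn. The IgG list had 7.28% (23 of 316, interval 4.67 to 10.7) against 3.49% in the rest of its hosts. Its interval overlapped those of the fasted list (4.86 to 14.8) and the 2 h list (4.97 to 12.7) and lay just below that of the 10 h list (10.9 to 27.4). Among IgG-free NONO peaks, 20 of 244 segments (8.20%, interval 5.08 to 12.4) were skipped elsewhere, against 6.33% of the other host segments, or 3.53% without Ttn. This comparison has no test, and it was chosen after the data had been seen.

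The cassettes ranged over signalling, adhesion and membrane genes. Besides Slk exon 13 and the extra domain B of Fn1, they included Nf1 exon 31, the 63-bp insert in the GTPase-activating domain, with 32.3 normalised tags at 10 h, and 62.6 in an intron-centred peak at 2 h. The 10 h Nf1 peak, at 2.56-fold over input, met an IgG peak with 26.3 normalised tags at 4.73-fold. Numb exon 9, which lengthens the proline-rich region, had 27.1 normalised tags fasted against 84.8 in IgG. Adgrl2 exon 17 (45 bp) was the centre of the fasted peak with 137.4, while the 2 h peak over it, with 288.7, was centred on exon 16. The 10 h peak there had 114.4 and the IgG peak 18.4. Dnm1l, a mitochondrial fission GTPase, had 223.8 at 2 h over a cassette of 39 bp and 102.7 in IgG. At 10 h the list also held Csnk1g3, Nfat5, Ralgapa1 and Usp48, and at 2 h Clasp1, Itsn2, Gphn, Adam17 and Map4k3. The 10 h peaks of Csnk1g3, Nfat5 and Usp48 had 46.5, 31.2 and 43.8 normalised tags. They met IgG peaks with 17.4, 27.9 and 19.5, whereas that of Ralgapa1 met none. In fold over input the IgG peaks of Csnk1g3, Nfat5 and Usp48 were higher, at 5.72, 3.24 and 3.5. The 10 h peaks of these genes had 2.35, 2.75 and 2.67. For Adgrl2 the order was opposite, at 4.84-fold fasted and 3.31-fold in IgG.

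The introns next to the NONO segments were longer than usual. The mean of the 2 flanking introns was taken in the annotated transcript where it was largest. Its median was 1861 bp fasted, 2114 bp at 2 h and 1870 bp at 10 h, against 1583 bp over all internal coding segments and 1308 bp in IgG. Other segments of the same hosts had 1538 bp, 1777 bp, 1498 bp and 1323 bp in order of list. Limited to flanks of at least 1000 bp on average, 8.74%, 10.5% and 20.5% of NONO segments and 9.04% of IgG segments were skipped elsewhere, against 3.10%, 5.34%, 6.16% and 4.10% of other host segments.

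NONO and IgG members differed in base composition. The median GC content of the segments was 44.7% fasted, 45.9% at 2 h and 45.8% at 10 h, but 53.8% in IgG, against 51.3% over all coding segments. With internal segments alone the medians were 44.3%, 44.4%, 45.4% and 52.2%, against 50.7%. The other segments of the host genes had medians of 46.2%, 46.4%, 47.4% and 50%. Within its gene, the median segment differed from the median of the other segments by -0.83, -1.01 and -1.92 percentage points in the NONO lists and by 1.01 points in IgG. The segment was below its gene in 93 of 162 fasted, 154 of 261 2 h, 76 of 119 10 h and 173 of 408 IgG cases. The quartiles of these differences spanned 0 in all 4 lists.

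**Figure D5:**
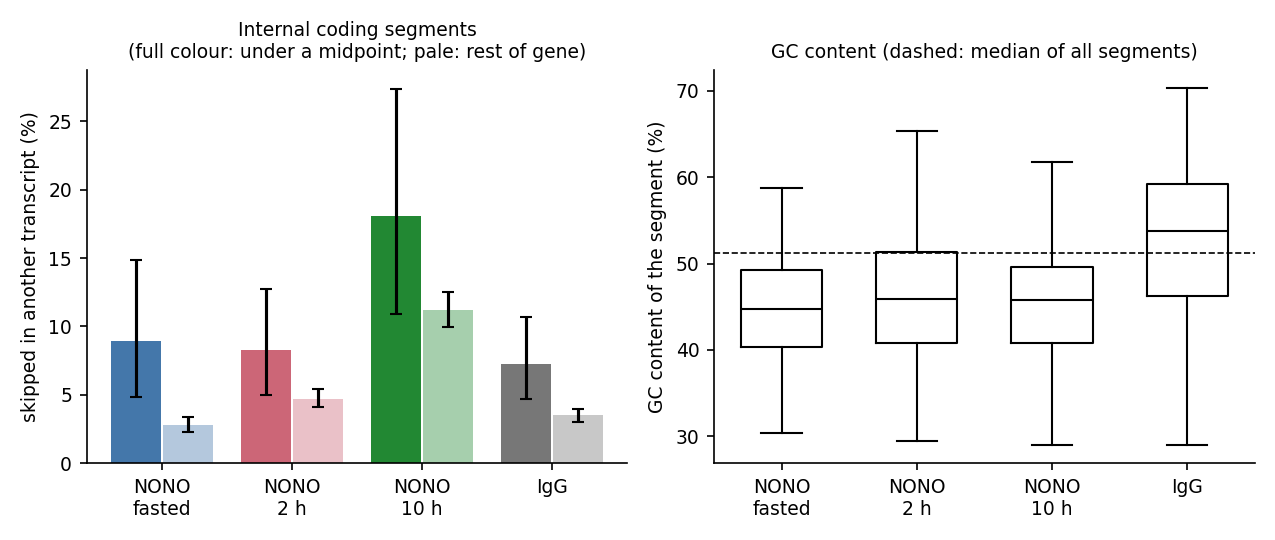
Left, percentage of internal coding segments that another annotated transcript skips, under peak midpoints (full colour) and in the rest of the same genes (pale), with exact 95% intervals. Right, GC content of the segments under midpoints, with boxes for quartiles and the median of all coding segments at 51.3% as a dashed line, which the 3 NONO medians lie below and the IgG median above.

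The members lay in 155 fasted, 246 2 h, 120 10 h and 399 IgG genes, and the 3 NONO lists together in 457. Genes with a member at all 3 NONO times were Birc6, an inhibitor of apoptosis, Hist2h2ab, Mycbp2, a ubiquitin ligase, and Tro. In Birc6 and Mycbp2 the members lay on different exons at each time, whereas in Hist2h2ab and Tro they lay on the same segment. Of the 457, 63 also had an IgG member. Intron-centred peaks lay in 87.1%, 84.6% and 83.3% of the hosts in order of time. The median length of the gene under a member was 90435 bp fasted, 80198 bp at 2 h, 64545 bp at 10 h and 48506 bp in IgG. Over all peaks of each list it was 107550 bp, 103044 bp, 102795 bp and 105153 bp, so members lay in shorter genes than peaks in general, while the median over all protein-coding genes was 17403 bp. Macf1, a cytoskeletal crosslinker, had 5 fasted members with 61.8 normalised tags in sum, Mdn1 4 at 2 h with 52.2, and Atrx, Ecpas and Herc2 3 each at 2 h. In IgG, Fasn and Svil had 3 each.

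Gene groups were read against 457 of 21924 coding genes with a NONO member. Of 55 nuclear RNA-binding protein genes 10 had one, with 7 fasted, 2 at 2 h and 3 at 10 h, and 5 had an IgG member. The shares were 12.7%, 3.64%, 5.45% and 9.09%, against 0.707%, 1.12%, 0.547% and 1.82% of all coding genes. The IgG share was thus also above that of all coding genes. A NONO peak of some kind lay in 51 of the 55, against 8764 of 21924. Among the 10 with a NONO member were Hnrnpm, Srrm2, Nono, Son, Rbm25, Hnrnpa1, Hnrnpk, Rbm6 and Hnrnpul2. Rbm25, a splicing factor, had 65.6 normalised tags fasted over exon 2 and 77.9 in IgG over exon 13. Of 37 genes of glucose and glycogen metabolism 6 had a NONO member, and 32 had a NONO peak of some kind. Among the 6 were Eno1 (glycolytic enolase), with 10.4 normalised tags at 2 h and 14.2 at 10 h, and Pgm1, Phkb, Pfkfb3 (a regulator of glycolysis) and Gyg (glycogenin). An IgG member was found in 2 of the 37 (5.41%, against 1.82% of all coding genes). These were Eno1, with 107.9 normalised tags on another exon, and Pfkfb3 with 5.26. Pgm1, Phkb and Pfkfb3 were fasted members, with 11.9, 11.9 and 9.51 normalised tags.

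In the other liver gene groups, the counts of NONO members were too small to set apart from those over all coding genes (457 of 21924). A NONO peak of some kind lay in 8764 of the 21924. Of 71 plasma protein genes 2 had one, Fn1 at 10 h and C6 at 2 h with 22.8 normalised tags, although 50 of the 71 had a NONO peak of some kind. None of 55 genes of amino acid breakdown and the urea cycle had a NONO member, while 50 had some NONO peak. The same held for bile acid and drug transport (0 of 30, with 27) and the circadian clock (0 of 24, with 23). In IgG 4 of the 24 clock genes had a member (16.7%, against 1.82% of all coding genes). These were Csnk1d, Nr1d2, Per3 and Arntl, with 53.7, 51.1, 9.48 and 4.74 normalised tags. Of 49 lipid genes Hadhb alone had a NONO member, with 20.4 normalised tags fasted. An IgG member was found in 3 of them (6.12%, against 1.82%), Fasn (679.1 in sum over 3 peaks) and Acaca (14.7) included. Among 76 cytochrome P450 genes Cyp2r1, a vitamin D hydroxylase, had 31.8 at 2 h. Alb and Apob had none in any list. These counts say which exons were peak centres and not whether the gene was bound.

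Genes with a long exon were more often hosts, but the member was not always on that exon. Of 716 genes with a coding segment of at least 2000 bp, 41 had a NONO member (11 fasted, 23 at 2 h and 13 at 10 h) and 17 an IgG member. The shares were 1.54%, 3.21%, 1.82% and 2.37%, against 0.707%, 1.12%, 0.547% and 1.82% of all coding genes. At 10 h the members of Jmjd1c, Dst and Nfat5 lay on segments of 140, 72 and 54 bp. Those of Tro, Naca and Ttn lay on segments of 3948, 5916 and 2967 bp. Of 465 zinc finger genes chosen by symbol 16 had a NONO member and 5 an IgG member. By list the shares were 1.51% fasted, 2.15% at 2 h, 0.86% at 10 h and 1.08% in IgG. Against the shares of all coding genes above, the NONO shares were higher and the IgG share lower. Zfp451 had 26.1 fasted and 46.4 at 2 h, Zfp938 14.2 at 2 h and 37.8 at 10 h, and Zfp959 33.3 fasted and 14.8 at 10 h, in normalised tags. Among the longest segments under a NONO midpoint were those of Srrm2 (6569 bp), Pkdrej (6378 bp), Naca (5916 bp), Tcf20 (5736 bp) and Macf1 (5331 bp). Apart from Srrm2 their peaks were small, between 9.85 and 28.9 normalised tags. None of these 5 peaks met an IgG peak.

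Copies elsewhere limit part of the list. At least 50% of the 50-base words of the segment occurred in a transcript of another gene for 9 fasted, 29 2 h, 10 10 h and 31 IgG members. The midpoint rule also chose 14, 39, 16 and 60 peaks that overlapped more than 1 gene.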

How the data were processed

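RNA from anti-NONO and IgG precipitates of mouse liver nuclei and their inputs was sequenced in 8 libraries, 1 per group, each a pool of 2 experiments. The submitters' processing notes list STAR 2.4.0k, FastQC 0.11.2, HOMER and mm10, and the labels' protocols a stranded kit for total RNA. The peak caller of the authors was HOMER per the file headers, run against the matching input, in 500-bp windows joined within 1000 bp, on both strands together, at 2-fold or more and a threshold of 11 tags (8 in IgG), with at most 1 tag per base. The deposited signal is tags per 10000000 library tags, the deposited fold is the authors' ratio to input, and the deposited score is HOMER's peak score, used only to rank peaks. A list holds only peaks that the caller kept under these settings, so a missing peak is not a count of 0. The deposited tags need not obey the settings themselves. The weakest fasted, 2 h and IgG members rested on fewer reads than the threshold. Fth1 at 2 h had 3402.4 normalised tags in 1841 bp, more than 1 per base.

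Peaks were assigned by midpoint to GENCODE M21 basic coding segments. The host is the transcript with the longest coding sequence there. Density is normalised tags per kb, overlap is 1 bp, and a matched peak is the overlapping one with most tags. Tags per gene with several peaks were summed. In simulated data 2000 of 2000 planted midpoints and 1000 of 1000 planted overlaps were classed as planted. Named genes are the members with most tags, highest fold, most tags without IgG, most peaks, largest density ratios and longest segments, up to 3 per gene list, and Alb, Apob and Nono. Members and lists were chosen with earlier results of these data known, and the GC, copy and cassette measures were added after the data were seen. Alternatives changed the coding rule, the fold, the list length and the overlap. Python 3.11.15, numpy 2.4.6, pandas 2.3.3, scipy 1.17.1 and matplotlib 3.10.9 were used. Reads were not used here, and a few genes are not reported here.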

Additional observations from a re-analysis of the deposited data

How the results depend on the processing

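No paired analysis was possible because the 8 libraries fall 1 to a group, and no library could be left out. Values are in the order fasted, 2 h, 10 h and IgG. With any coding base under the peak the members numbered 2093, 4203, 1953 and 4540 (5.48%, 6.81%, 3.86% and 8.11% of the lists). With at least 50% coding bases they numbered 30, 33, 27 and 80 (0.0785%, 0.0535%, 0.0534% and 0.143%), and at 4-fold over input 37, 56, 15 and 160 (0.462%, 0.309%, 0.159% and 0.558%). The 10 h share was the lowest of the 4 under the midpoint rule, under any coding base, and at 4-fold, and the IgG share the highest under each. With lists cut to the length of the shortest by score, 2 h kept 172 members, and no share of a list left its interval. In coding genes of at most 50 kb, a limit added later, the shares were 0.63%, 0.713%, 0.469% and 1.78%. All protein-coding transcripts in place of the basic set moved no count by 1.5 times.

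The share meeting an IgG peak was 13.2%, 16.2% and 19.4% when IgG had to cover 50% of the peak, 18.9%, 14.3% and 0% at 4-fold and 20%, 18.2% and 14.8% with at least 50% coding bases. It was 51.2% at 2 h with equal lists. The shares met at another time (fasted by 2 h, fasted by 10 h, 2 h by 10 h) were 23.4%, 9.58% and 11.1% with 50% of the peak covered and 10.8%, 2.7% and 0% at 4-fold. With equal lists the first was 35.3%. At 4-fold, 15 members were left at 10 h and 37 fasted. Of 65 medians recomputed, 31 stayed within the 95% interval of the main median and 34 did not, 13 of them under the 50% coding rule and 14 at 4-fold. Both of these left median widths of 500 bp. None of 16 moved when 1 gene alone lay under the midpoint. Depth limits the weakest members, which rested on 7 to 12 reads.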

Other observations

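Small RNA genes lay under a few members of each list. An annotated small RNA overlapped 10 of 423 IgG peaks (2.36%) against 2 of 167 fasted (1.20%), 3 of 271 2 h (1.11%) and 2 of 124 10 h (1.61%) peaks. Over all peaks of the lists the share was 0.383% in IgG, 0.411% fasted, 0.452% at 2 h and 0.381% at 10 h, so IgG was not higher there, and the NONO counts were 2 or 3 peaks. The IgG cases included the ribosomal and translation genes Rack1 (494.8 normalised tags, over Snord95 and Snord96a), Rps12 (250.1, over Snora33 and Snord100) and Eef2 (107.9, over Snord37), whose introns host small nucleolar RNAs. In the NONO lists Ccar1 had 40.8 normalised tags over Snord98 at 2 h. The part of the small RNAs in these tags was not tested.

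Genes with a single coding segment had members in 4 fasted, 9 2 h, 4 10 h and 16 IgG cases of 3468, or 0.115%, 0.260%, 0.115% and 0.461%. Over all coding genes the shares were 0.707%, 1.12%, 0.547% and 1.82%. Hist2h2ab and Gm37419 led the NONO lists. The others had fewer tags, such as Pigw with 36.1 normalised tags at 10 h and Adam4, a sperm protein gene, with 8.56 fasted and 15.6 at 2 h in sum over 2 peaks.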
